A study of Mus musculus with 6 samples.

Results

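The genes described here are those of megalin (Lrp2) and of the low density lipoprotein (LDL) receptor family around it, with the partners these receptors need for endocytosis. Members were all probe sets whose platform annotation gives exactly 1 gene symbol out of Lrp1, Lrp2, Lrp4, Lrp5, Lrp6, Lrp8, Lrpap1, Cubn, Amn and Dab2. Of the 10 genes, 9 had such a probe set and 1, Amn, had none. Together they had 22 of the 41420 probe sets and made up 9 of the 16813 genes measured. The set was chosen by its tie to Lrp2, and Lrp2 was picked on its measured log2 values in this same comparison, Arid1a d/d against Arid1a f/f. The values and calls of the members in this comparison are therefore given as a description, and no test result is drawn from them.

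The study profiled whole uteri of intact female mice aged 2 weeks on Affymetrix expression arrays, with 3 arrays labelled Arid1a d/d and 3 labelled Arid1a f/f. In the usual notation d is a deleted and f a floxed allele of Arid1a, whose protein belongs to SWI/SNF chromatin remodellers. The labels name no Cre driver, no deleted exon and no treatment, and they do not say whether each array came from 1 animal. All values below are log2 intensities of the deposited table, and every difference is d/d minus f/f on that scale.

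Megalin is a very large endocytic receptor of absorptive epithelia, best known from the kidney tubule, where it takes up vitamin carriers, hormones and lipoproteins. It works with cubilin (Cubn), a peripheral membrane receptor that is anchored and carried to the surface by amnionless (Amn). The chaperone RAP, encoded by Lrpap1, keeps the receptors from binding ligands too early in the secretory pathway, and the adaptor Dab2 links their cytoplasmic tails to clathrin. Other members of the family act partly or mainly in signalling: Lrp5 and Lrp6 are Wnt co-receptors, Lrp4 binds agrin and Wnt inhibitors, Lrp8 binds reelin, and Lrp1 combines endocytosis with signalling.

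The promoters of Lrp2, the member with the largest difference, and of Lrpap1, whose probe sets lay on the opposite side, are shown first for comparison. Each is 250 bases before to 50 bases after the start of the gene in RefSeq on GRCm38.p6, read 5′ to 3′ on the strand of the gene. Lrp2 lies at chr2:69585980-69586279 on the minus strand, and Lrpap1 at chr5:35105650-35105949 on the minus strand. Capitals mark the GC box, GGGCGG or its complement CCGCCC.
Lrp2: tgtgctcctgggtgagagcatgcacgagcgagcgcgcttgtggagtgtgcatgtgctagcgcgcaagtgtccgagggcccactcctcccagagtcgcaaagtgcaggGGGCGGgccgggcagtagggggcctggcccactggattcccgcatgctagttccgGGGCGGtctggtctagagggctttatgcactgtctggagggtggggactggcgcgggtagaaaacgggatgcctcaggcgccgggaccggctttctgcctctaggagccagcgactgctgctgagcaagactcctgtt
Lrpap1: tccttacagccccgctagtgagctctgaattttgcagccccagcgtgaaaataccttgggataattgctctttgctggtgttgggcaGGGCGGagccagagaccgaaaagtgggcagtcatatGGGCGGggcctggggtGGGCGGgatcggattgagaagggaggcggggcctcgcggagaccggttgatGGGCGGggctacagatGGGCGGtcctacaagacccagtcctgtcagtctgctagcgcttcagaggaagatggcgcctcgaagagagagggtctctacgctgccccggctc
The Lrp2 window held 2 GC boxes, with first bases at -143 and -88 from the start, and the Lrpap1 window held 5. Over all 32851 RefSeq windows of this length 35.7% held at least 1. Of the 10 members, 7 had a window in the table, 10 windows in all, and 4 of these windows held a GC box (Lrp1, Lrp2, Lrpap1 and Amn). The CCAAT box (CCAAT or ATTGG) stood in 1 of the 10 windows, that of Amn, against 37.4% of all windows, and the TATA box (TATAAA or TTTATA) in 0 of 10, against 13.6%. The Lrp2 window had 20 CpG sites and a GC content of 65.0%, and the Cubn window 5 CpG sites and 44.3%, beside medians of 7 and 52.7% over all windows. A match is a run of letters and was not tested as a binding site.

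The arrays were much alike, with correlations over all probe sets of 0.987 to 0.995. One library stood apart from its genotype: d/d 1 lay at -11.9 on the first principal component (42.6% of the variance), among the f/f arrays at -29.4 to -6.95, whereas d/d 2 was at 37.2 and d/d 3 at 28.8. Arid1a itself measured 6.98, 7.06 and 7.04 in d/d 1, 2 and 3, against 7.54, 7.58 and 7.71 in f/f 1, 2 and 3, so each d/d array lay below each f/f array. The uterine genes Hoxa10, Hoxa11, Emx2, Esr1, Pgr, Wnt7a and Wnt5a were above the median of all values in both genotypes, with a mean over the list of 8.42 to 8.64 in d/d and 8.33 to 8.57 in f/f arrays. The table has no detection calls, so that median, 2.69, serves below as a mark of the dim range, where background compresses differences.

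Lrp2 measured lower in d/d uteri by its brightest probe set, 1427133_s_at. Its values were 3.39, 3.48 and 2.51 in d/d 1, 2 and 3, against 5.47, 5.68 and 5.18 in f/f 1, 2 and 3. The highest d/d value lay well under the lowest f/f value, and d/d 3 fell under 2.69. The means were 3.13 ± 0.53 in d/d and 5.45 ± 0.25 in f/f uteri (SD, n = 3 each), a measured log2 difference of -2.32 ± 0.25 (SE), or 4.99-fold. As d/d 3 reached the dim range, background limits this fold.

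A further probe set of Lrp2, 1452320_at, was dimmer and also lower in d/d. Its values were 2.22, 2.38 and 1.85 in d/d 1, 2 and 3, against 4.65, 4.81 and 3.95 in f/f 1, 2 and 3. All d/d arrays were in the dim range and all f/f arrays above it. The means were 2.15 ± 0.27 in d/d and 4.47 ± 0.46 in f/f uteri (SD, n = 3 each), with a measured log2 difference of -2.32 ± 0.23 (SE). Because no d/d value stood above 2.69, background limits this difference, and it is not a precise second estimate. The arrays had the same order within each genotype in both probe sets: array 2 was highest and array 3 lowest among the d/d and among the f/f arrays. The gap between these probe sets was 0.66 to 1.17 in d/d and 0.83 to 1.23 in f/f arrays.

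The third Lrp2 probe set, 1445901_at, stayed in the dim range in every array, at 1.76, 1.74 and 1.56 in d/d 1, 2 and 3, against 1.75, 1.80 and 1.89 in f/f 1, 2 and 3. The genotypes overlapped, with a log2 difference of -0.13 ± 0.09 (SE). The mean of the 3 probe sets gave -1.59.

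In the limma fit across all probe sets, 2 of the 22 member probe sets, both of Lrp2, passed a Benjamini-Hochberg adjusted p of 0.05, and both were lower in d/d. Of all probe sets 0.524% passed, made up of 0.210% lower and 0.314% higher in d/d. Among genes, each by its brightest probe set, 1 of 9 members passed, Lrp2, beside 1.14% of all genes, made up of 0.512% lower and 0.630% higher in d/d. As the members were chosen with this contrast known, nothing is read from these counts. They changed with the arrays used: without f/f 2 no member probe set passed (log2 difference of Lrp2 -2.20), and without f/f 3 1 did, 1452320_at. Over all probe sets 37 passed without f/f 2, 41 without f/f 3 and 971 without d/d 1, beside 217 with all arrays. Without d/d 1, the library that stood apart, 3 member probe sets passed, with Lrp1 as the added one, and the Lrp2 difference was -2.45. Among genes 0 members passed without f/f 2 or without f/f 3, and 2 without d/d 1.

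**Figure D1:**
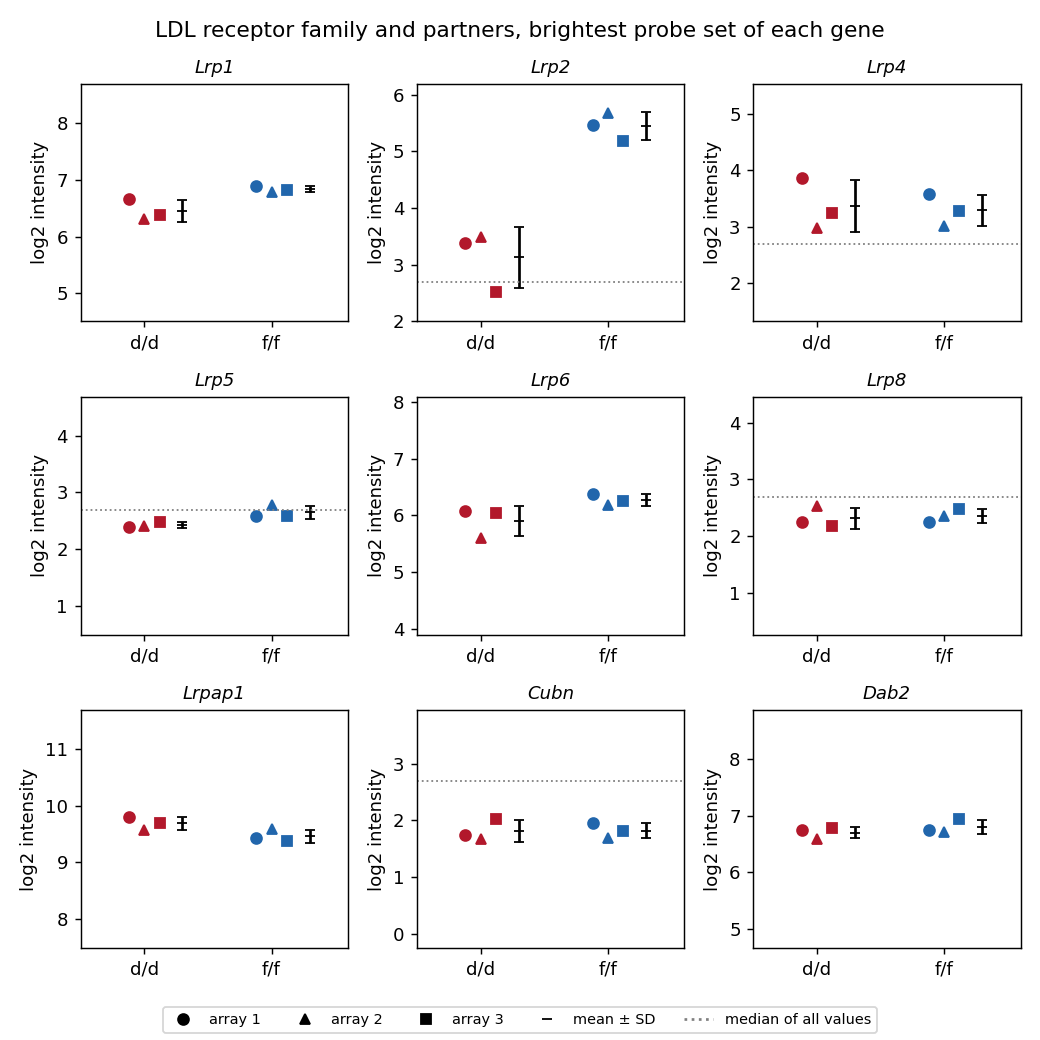
Log2 intensity of the brightest probe set of 9 genes (vertical axes, each spanning the same range), with the 3 d/d arrays left of the 3 f/f arrays, the mean ± SD beside them and the median of all values, 2.69, as a dotted line where it falls in range. Lrp2 has a wide gap between the genotypes, from 3.48 as the highest d/d value to 5.18 as the lowest f/f value, while Lrp4, Lrp8, Lrpap1, Cubn and Dab2 overlap.

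Cubn, the partner of megalin, was in the dim range in all arrays. Its brighter probe set measured 1.74, 1.66 and 2.03 in d/d 1, 2 and 3, against 1.95, 1.68 and 1.81 in f/f 1, 2 and 3. The other probe set lay between 1.55 and 1.57 in d/d and between 1.56 and 1.58 in f/f arrays. The genotypes overlapped in both, with log2 differences of -0.004 ± 0.121 and -0.016 ± 0.078 (SE). Background limits what change of Cubn could be seen at this level.

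Lrp1, the large endocytic and signalling receptor of many tissues, was somewhat lower in d/d uteri by its bright probe set. It measured 6.67, 6.32 and 6.38 in d/d 1, 2 and 3, against 6.89, 6.80 and 6.83 in f/f 1, 2 and 3. The genotypes did not overlap, and d/d 1 lay closest to the f/f arrays. The means were 6.45 ± 0.19 in d/d and 6.84 ± 0.05 in f/f uteri (SD, n = 3 each), 1.31-fold lower in d/d, with a log2 difference of -0.39 ± 0.11 (SE). This probe set was past the array-wide threshold in 1 of the alternatives, without d/d 1, where the difference was -0.49. The dim probe set of Lrp1 had values of 2.12 to 2.63 in d/d and 2.49 to 2.67 in f/f arrays, which overlapped.

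Lrp6, a Wnt co-receptor, was lower in d/d arrays by 1 of its 2 probe sets. The brighter one measured 6.08, 5.60 and 6.04 in d/d 1, 2 and 3, against 6.38, 6.18 and 6.25 in f/f 1, 2 and 3. These groups did not overlap, although d/d 1 and f/f 2 lay close together, and the log2 difference was -0.37 ± 0.14 (SE). The other gave 5.30, 5.14 and 5.25 in d/d 1, 2 and 3, against 5.53, 5.22 and 5.13 in f/f 1, 2 and 3, which overlapped (log2 difference -0.06 ± 0.12, SE). The 2 probe sets of Lrp6 therefore differed in what they showed.

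Lrp5, the other Wnt co-receptor, had 1 probe set, at the edge of the dim range. It measured 2.40, 2.40 and 2.48 in d/d 1, 2 and 3, against 2.58, 2.77 and 2.59 in f/f 1, 2 and 3. All d/d values lay below all f/f values, with f/f 2 alone above 2.69, and the log2 difference was -0.22 ± 0.09 (SE). Lrp4, the agrin receptor, measured 3.87, 2.99 and 3.25 in d/d 1, 2 and 3, against 3.57, 3.02 and 3.28 in f/f 1, 2 and 3. The genotypes overlapped fully, with the array numbered 1 highest in each, and the log2 difference was 0.08 ± 0.23 (SE). Its sign turned with array weights (-0.03), without d/d 1 (-0.17), without f/f 2 (-0.06) and without both arrays numbered 1 (-0.03). Lrp8, the reelin receptor ApoER2, stayed in the dim range by all 3 of its probe sets, at 1.52 to 2.53 in d/d and 1.46 to 2.48 in f/f arrays, with log2 differences of -0.04, 0.09 and 0.04.

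Lrpap1, the chaperone of the family, was on the higher side in d/d uteri by all 4 of its probe sets, which were bright in every array. The brightest measured 9.80, 9.56 and 9.69 in d/d 1, 2 and 3, against 9.42, 9.59 and 9.37 in f/f 1, 2 and 3. The groups overlapped through d/d 2 and f/f 2, with a log2 difference of 0.23 ± 0.10 (SE). The second, 1426696_at, gave 8.06, 7.90 and 7.97 in d/d 1, 2 and 3, against 7.65, 7.82 and 7.66 in f/f 1, 2 and 3. There each d/d array lay above each f/f array, with means of 7.98 ± 0.08 in d/d and 7.71 ± 0.10 in f/f uteri (SD, n = 3 each), 1.20-fold higher in d/d. The remaining probe sets overlapped and had log2 differences of 0.15 ± 0.15 and 0.12 ± 0.13 (SE). None of the 4 was past the array-wide threshold in any alternative run.

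Dab2, the adaptor that links the receptor tails to clathrin, overlapped between the genotypes by its 3 brighter probe sets. The brightest measured 6.74, 6.59 and 6.78 in d/d 1, 2 and 3, against 6.76, 6.70 and 6.94 in f/f 1, 2 and 3. The log2 differences of the 3 were -0.10 ± 0.10, -0.10 ± 0.08 and -0.11 ± 0.15 (SE), so each was about as large as its error or smaller. A dim probe set, 1430604_a_at, measured 2.23, 2.28 and 2.16 in d/d 1, 2 and 3, against 2.04, 2.11 and 2.00 in f/f 1, 2 and 3. It did not overlap and ran the other way, with a log2 difference of 0.17 ± 0.08 (SE), below 2.69 throughout.

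Over all 22 member probe sets, d/d lay below all f/f arrays in 5 and above them in 2, and 15 overlapped. Of all probe sets 14.1% did not overlap, 7.47% with d/d below and 6.67% with d/d above. Of the 22, 11 were above 2.69 in every array. These 11 had log2 differences of -0.39 to 0.27 and leave out Lrp2. Its brightest probe set was in the dim range in d/d 3 alone, 1452320_at in all d/d arrays and 1445901_at in every array. The median log2 difference was -0.05 over the member probe sets and -0.004 over all probe sets.

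**Figure D2:**
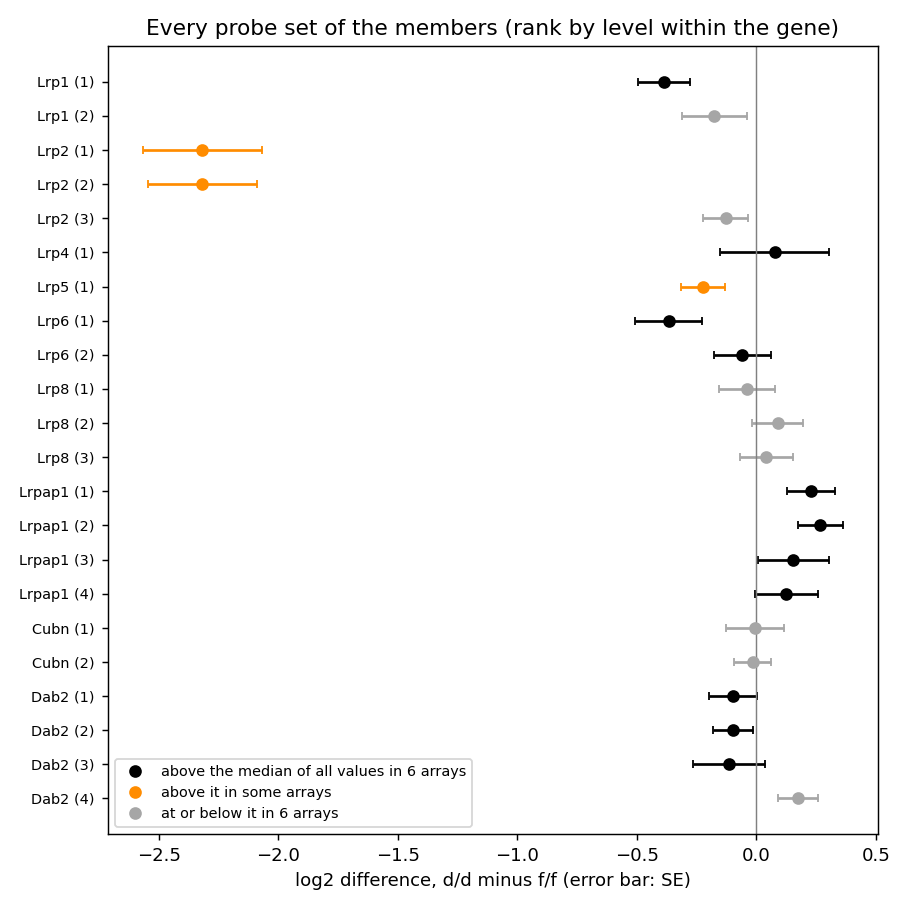
Log2 difference, d/d minus f/f, with its SE (horizontal axis) for all 22 probe sets, ranked by level within each gene and coloured by whether they lay above the median of all values. The first 2 probe sets of Lrp2 lie at -2.32, and all others lie between -0.39 and 0.27.

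The genes whose profile over the 6 arrays lay closest to that of Lrp2 were Rassf5, Them5, Ces1d, Greb1 and Hk2. Closeness was measured as the root mean square distance between log2 values after the mean of the 6 arrays was taken off each gene, over 10556 genes with a mean above 2.69. The distances were 0.437, 0.439, 0.475, 0.479 and 0.492 log2 units, beside a median of 1.21 over those genes. Since the Lrp2 profile is mostly the gap between the genotypes, this finds genes with a like gap. Rassf5, a Ras-association domain protein, measured 3.93, 3.74 and 3.63 in d/d 1, 2 and 3, against 5.27, 5.67 and 5.20 in f/f 1, 2 and 3. Greb1, an estrogen-responsive gene, measured 2.75, 3.05 and 2.81 in d/d 1, 2 and 3, against 4.79, 4.58 and 4.06 in f/f 1, 2 and 3. The other 3 are Them5, a thioesterase, Ces1d, a carboxylesterase, and Hk2, a hexokinase, with log2 differences of -2.48, -1.73 and -1.75. Among the members themselves, the nearest to Lrp2 was Lrp1 at 1.02.

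**Figure D3:**
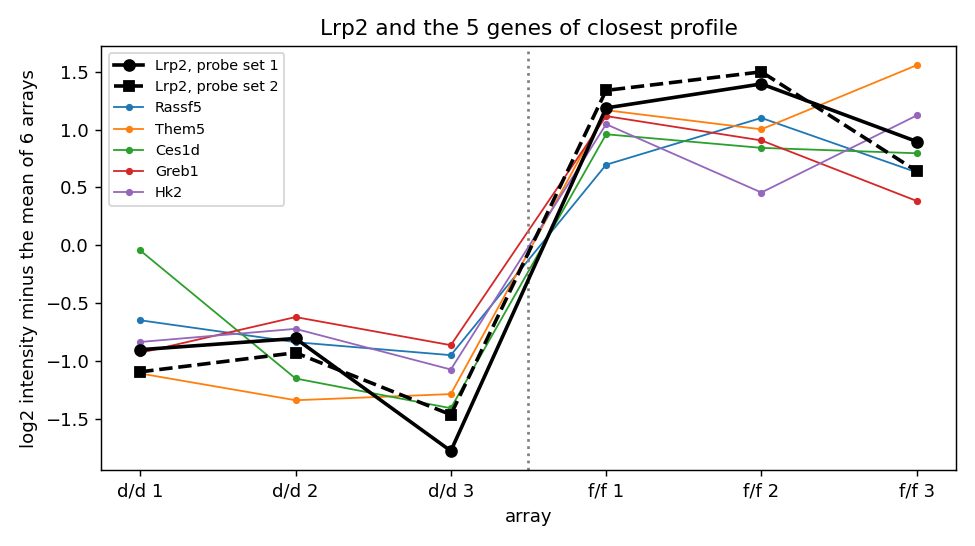
Log2 intensity minus the mean of the 6 arrays (vertical axis) in each array, for the 2 brighter probe sets of Lrp2 (black) and the 5 genes of closest profile (colours). Lines join the values of 1 gene to guide the eye, and arrays of a genotype have no order. All 7 profiles are lower in d/d, and Ces1d in d/d 1 lies nearest to the mean.

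Around the receptors, 6 lists of related genes with 90 entries were examined, of which 73 were measured. In the limma fit over all genes (Benjamini-Hochberg), 1 of the 73 rose, 1 fell and 71 did not pass, beside 1.14% of all genes. The genotypes did not overlap in 18 of the 73, beside 16.5% of all genes. The median log2 difference was -0.07 over the 73 and -0.01 over all genes. The 2 that passed were Atp6v1a and Ndp, and neither call held when any array other than d/d 1 was left out. In those runs 26 to 83 of all genes passed, beside 192 in the fit reported. With single arrays left out, the log2 differences stayed at 0.64 to 0.81 for Atp6v1a and -0.94 to -0.69 for Ndp.

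Atp6v1a, a subunit of the proton pump that acidifies endosomes and lysosomes, rose 1.65-fold. It measured 8.29, 8.11 and 7.94 in d/d 1, 2 and 3, against 7.51, 7.32 and 7.34 in f/f 1, 2 and 3, with no overlap. In limma its log2 difference was 0.72 ± 0.11 (SE; adjusted p = 0.0336). Its adjusted p was 0.143 without d/d 2, 0.0686 without d/d 3, 0.0689 without f/f 1, 0.151 without f/f 2 and 0.143 without f/f 3. Of 11 measured genes of endosome sorting and acidification it was the 1 that rose, 0 fell and 10 did not pass, with a median of -0.08. Rab4a, a GTPase of fast recycling, stood at -0.67 there and did not pass (limma adjusted p = 0.107). It was past the threshold with array weights (adjusted p = 0.0410), without d/d 1 (0.0132) and without both arrays numbered 1 (0.0342). In these runs 381, 821 and 540 of all genes passed, beside 192 in the fit reported. Ocrl and Clcn5, the phosphatase and the chloride transporter whose human genes are tied to failing protein uptake in the kidney tubule, had log2 differences of 0.001 and -0.18.

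Ndp, which encodes norrin, a ligand that signals through a frizzled receptor with Lrp5 or Lrp6, fell. It measured 5.98, 5.63 and 5.47 in d/d 1, 2 and 3, against 6.59, 6.38 and 6.53 in f/f 1, 2 and 3. The groups did not overlap, and the log2 difference was -0.80 ± 0.14 (SE; limma adjusted p = 0.0468). The call ended without d/d 2, d/d 3, f/f 1, f/f 2 or f/f 3, with adjusted p of 0.140 to 0.201, and also with median centring (0.0568) and with log2 of the value plus 1 (0.0517). Of the 14 measured partners of the signalling receptors 0 rose, 1 fell and 13 did not pass, with a median of -0.02. Agrn, the agrin that binds Lrp4, had a log2 difference of -0.08, and Axin2, a target of Wnt signalling, 0.22, both with overlapping groups. Reln, the ligand of Lrp8, stood at 0.36 ± 0.33 (SE), also with overlap. Reln measured 5.96, 4.72 and 4.56 in d/d 1, 2 and 3, against 4.78, 4.59 and 4.77 in f/f 1, 2 and 3. Only d/d 1 lay above all f/f arrays. Over all probe sets Ndp did not pass.

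Of 16 measured ligands of megalin and cubilin, 0 passed in either direction, 13 had lower means in d/d and the median was -0.13. The median over all genes was -0.01. Of the 16 ligands, 6 were in the dim range in all arrays, so the direction of their small differences says little. Rbp4, the retinol carrier that megalin takes up, had the smallest p of the list. It measured 5.58, 4.77 and 4.52 in d/d 1, 2 and 3, against 6.45, 6.22 and 6.12 in f/f 1, 2 and 3, which did not overlap. The log2 difference was -1.31 ± 0.25 (SE; limma adjusted p = 0.0630). The adjusted p was 0.0185 with array weights, 0.00199 without d/d 1 and 0.00526 without both arrays numbered 1. With any other single array left out it was 0.177 to 0.258. Clu, a chaperone of extracellular proteins and a megalin ligand, stood at -0.69 ± 0.21 (SE; limma adjusted p = 0.235). It passed without d/d 1 (0.00570) and without both arrays numbered 1 (0.0139), and was at 0.381 to 0.637 with any other single array left out. Apoe, an apolipoprotein, and Lpl, lipoprotein lipase, had log2 differences of -0.76 ± 0.29 and -0.57 ± 0.19 (SE; limma adjusted p = 0.333 and 0.277). The groups of Apoe overlapped, with d/d 1 at 8.47 and f/f 3 at 8.33. Apoe was past the threshold without d/d 1 (adjusted p = 0.0116) and without both arrays numbered 1 (0.0165). In these runs 821 and 540 of all genes passed, beside 192 in the fit reported. Rbp4, Apoe and Lpl are also made by fat cells. The 6 measured fat markers all had lower means in d/d, but 0 passed. Their list mean was 3.91 to 4.80 in d/d and 5.06 to 5.71 in f/f arrays, and 1 of the 6 was in the dim range in all arrays. The part of fat tissue in these ligand values was not tested.

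Among 8 other measured members of the LDL receptor family, 0 passed and the median was -0.07. Sorl1, a sorting receptor with LDL receptor repeats, measured 6.23, 6.48 and 6.51 in d/d 1, 2 and 3, against 6.11, 5.66 and 5.68 in f/f 1, 2 and 3. The groups did not overlap, with a log2 difference of 0.59 ± 0.15 (SE; limma adjusted p = 0.126), and it passed without d/d 1 (0.0422) and without both arrays numbered 1 (0.0125). With any other single array left out the adjusted p was 0.0710 to 0.422, and with the mean of its probe sets 0.245. Another Sorl1 probe set had overlapping groups and a log2 difference of 0.52, and a dim one stood at -0.02. Lrp3 stood at -0.22 (adjusted p = 0.384) at the edge of the dim range.

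Adaptors and coat proteins carry these receptors inward. Of 10 measured adaptors, chaperones and turnover genes 0 passed, with a median of -0.07. Pid1, a phosphotyrosine-binding protein that interacts with Lrp1, stood at -0.39 ± 0.08 (SE; limma adjusted p = 0.0783, and 0.0450 with array weights). Array weights were the only 1 of 16 alternatives in which Pid1 passed. With single arrays left out the adjusted p was 0.0551 to 0.305, and with the mean of its probe sets 0.630 (log2 difference -0.12). The other Pid1 probe sets were in the dim range, with log2 differences of 0.002 and 0.02. Dab1, the adaptor of the reelin receptors, had the largest difference of the list, -0.41 ± 0.17 (SE; limma adjusted p = 0.391), with overlapping groups. Its 5 probe sets were all lower in d/d, with log2 differences of -0.69 to -0.17, and 2 of them did not overlap, 1 of these in the dim range. Gulp1, an engulfment adaptor that binds Lrp1, stood at 0.31 ± 0.10 (SE; limma adjusted p = 0.255). Of 14 measured genes of clathrin and the AP-2 complex 0 passed, with a median of -0.07. The clathrin chains Cltc, Clta and Cltb had log2 differences of 0.03, -0.10 and -0.28. Eps15, an endocytic scaffold, stood at 0.24 ± 0.09 (SE; limma adjusted p = 0.326) at the edge of the dim range, with all f/f values under 2.69. The list mean was 6.35 to 6.42 in d/d and 6.41 to 6.45 in f/f arrays.

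**Figure D4:**
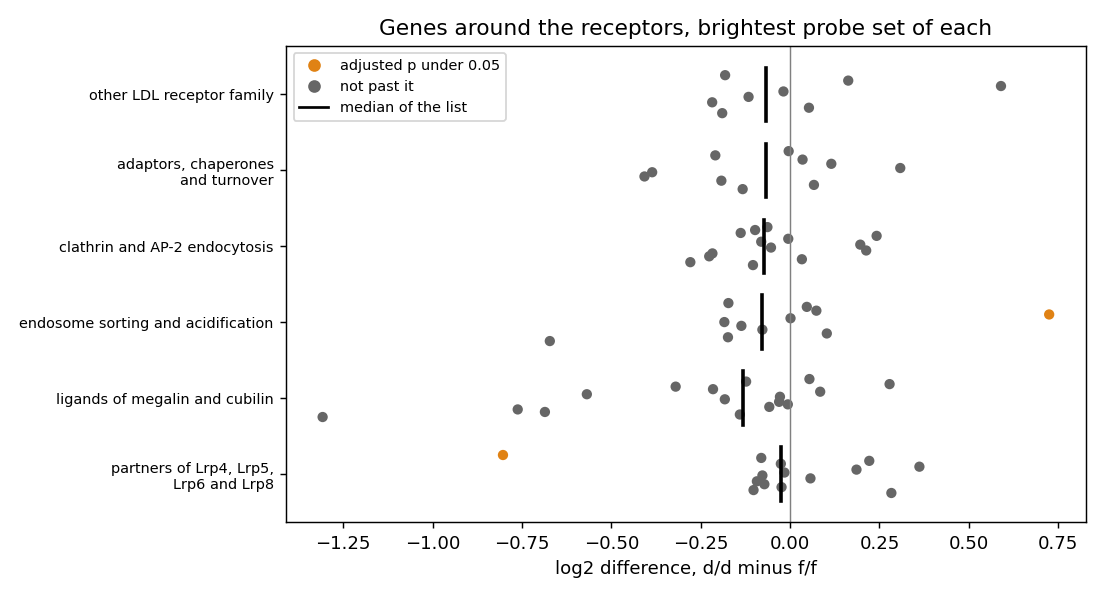
Log2 difference, d/d minus f/f (horizontal axis), of the 73 related genes in 6 lists, each point 1 gene by its brightest probe set and the bar the median of the list. The 2 coloured points are Atp6v1a at 0.72 and Ndp at -0.80, and Rbp4 at -1.31 is the lowest point.

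Megalin is an epithelial receptor, so the levels of epithelial markers are given beside it. In whole tissue, fewer cells of a type and less RNA per cell cannot be told apart. Of 9 measured markers of simple epithelium 2 rose (Cdh1 and Muc1), 0 fell and 7 did not pass, with a median of 0.61. Their list mean was 7.92 to 8.04 in d/d and 7.53 to 7.70 in f/f arrays, with 0 of the 9 in the dim range in all arrays. Of the 9, 7 had higher means in d/d and 2 had lower ones, Ehf at -0.53 and Cldn3 at -0.18. The part of epithelial content in the Lrp2 value was not tested. Of 7 measured markers of glandular epithelium 0 rose, 2 fell (Foxa2 and Cxcl15) and 5 did not pass, with a median of -0.14. Their list mean was 2.45 to 2.55 in d/d and 3.17 to 3.38 in f/f arrays, with 3 of the 7 in the dim range in all arrays. Most of that gap came from Cxcl15 and Foxa2, with log2 differences of -3.71 and -1.41. The d/d values of Cxcl15 were in the dim range. The other 5 lay between -0.27 and 0.08. Of the 7, 6 had lower means in d/d, and the part of the glands in the Lrp2 value was not tested.

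Kidney tubule genes mark a tissue where megalin and cubilin abound. Of the 6 measured, 4 were in the dim range in all arrays (Slc34a1, Slc22a6, Umod and Slc12a1), and the list mean was 2.09 to 2.23 in d/d and 2.12 to 2.20 in f/f arrays. The other 2, Slc5a2 and Slc22a12, were above 2.69 in every array, with means of 2.98 and 3.85 in d/d and 3.09 and 3.90 in f/f uteri. Lrp1 is abundant in connective tissue cells and macrophages. Of 10 stromal markers 0 rose, 1 fell (Thy1) and 9 did not pass, with a list mean of 9.59 to 9.80 in d/d and 9.91 to 10.1 in f/f arrays. The 6 macrophage markers had a list mean of 5.06 to 5.15 in d/d and 5.02 to 5.07 in f/f arrays, with 0 past the threshold and 1 in the dim range in all arrays. The part of either cell type in the Lrp1 value was not tested.

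**Figure D5:**
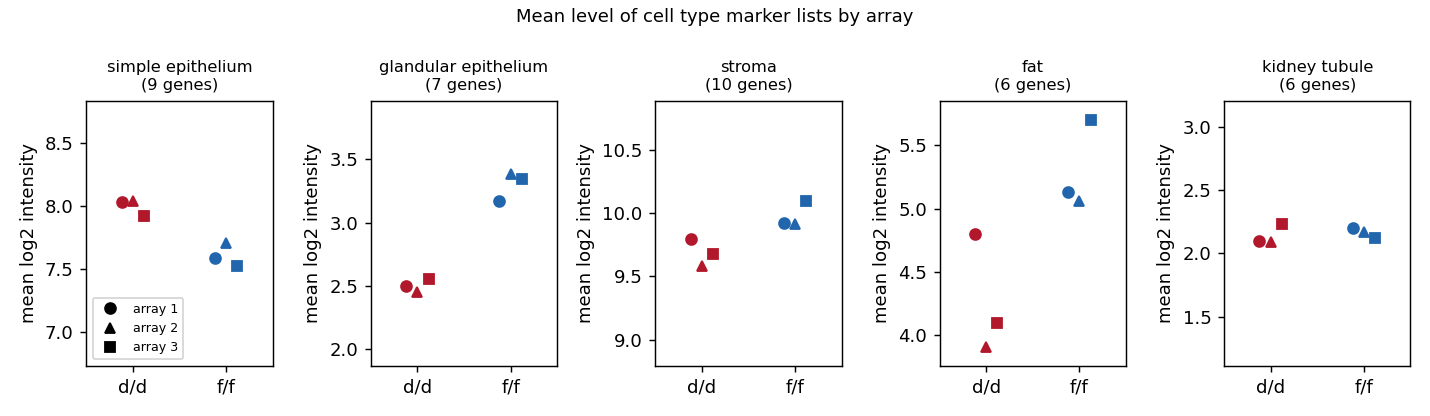
Mean log2 intensity of 5 cell type marker lists (vertical axes, each spanning the same range) in the 3 d/d and the 3 f/f arrays. The simple epithelium list is higher, and the glandular, stroma and fat lists are lower, in each d/d array than in each f/f array, while the kidney tubule list stays between 2.09 and 2.23.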

How the data were processed

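Transcript levels were measured in whole uteri on 6 Affymetrix arrays. The deposited values are linear intensities, 1 for each probe set in each array, made with RMA per the submitters' processing notes, which give no version or settings. RMA corrects background, equalises the distributions of arrays and summarises probes. Log2 was taken with no added constant. Symbols came from the platform annotation (31562 probe sets with 1, 830 with several, 9028 with none), and list genes were also matched through Entrez IDs.

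Differences between genotypes were fitted in R 4.3.3 with lmFit and eBayes of limma 3.58.1 (2-sided, without covariates) over all probe sets, and over genes by the probe set of highest mean. The fit had 4 residual and 4.19 prior degrees of freedom, so the number of arrays limits the precision. Calls use a Benjamini-Hochberg adjusted p of 0.05. The labels do not say whether arrays came from separate animals, so p-values reflect only how much these samples vary, which may be technical. The steps were tested on simulated data. Members and lists were chosen with earlier results of these data known. Named were all members, from each list up to 4 genes past the threshold or the 2 of smallest p, and the 5 genes closest to Lrp2. Rab4a, Dab1, Ocrl, Clcn5, Agrn, Reln, Axin2, Apoe, Lpl, Cltc, Clta and single marker genes were named after their values were seen. As alternatives, the fit was run with array weights, a replicate block, or robust variance and an intensity trend, after median centring or a repeated quantile normalization, without probe sets of a mean under percentile 40 or of the suffix _x_at, with log2 of the value plus 1, with the mean of probe sets, and without single arrays or both numbered 1. Correlations between the deviations of arrays with the same number were 0.461, 0.0228 and 0.178. Arrays of different numbers were not compared in this way, so these values cannot decide whether the numbers pair the arrays. The fit reported treats the arrays as unpaired, and the replicate block is the alternative that pairs them.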

Additional observations from a re-analysis of the deposited data

How the results depend on the processing

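The Lrp2 difference stayed between -2.50 and -2.01 with each array left out, and moved with the mean of all its probe sets (-1.59) and by the probe set 1445901_at (-0.13), which is in the dim range throughout. With each array left out, member probe sets past the threshold ranged from 0 to 3, member genes from 0 to 2 and related genes from 0 to 7. With the replicate number as a block (replicate block), 2 member probe sets, 1 member gene and 4 related genes passed, with Rab4a (adjusted p = 0.0204) and Rbp4 (0.0126) as the additions. Related genes past the threshold were 5 with array weights, 7 without both arrays numbered 1, and 1 each with median centring and with log2 of the value plus 1. Over all genes, 457 passed with the block, 381 with array weights, 540 without both arrays numbered 1 and 26 to 821 with 1 array left out, beside 192 in the fit reported. Over all probe sets these counts were 574, 329, 657 and 37 to 971, beside 217. The cause of these shifts was not tested. The third probe set of Lrp2, Lrp8 and Cubn lay in the dim range, where background limits what can be seen.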
